A study of Mus musculus with 6 samples.

Results

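Avil and Sh2d6 are a pair of protein-coding genes best known from tuft cells, and both were far lower in Bv2 cells after oxygen and glucose deprivation with reperfusion (OGD/R) than in control cells. They were taken by name from a deposited table of FPKM (fragments counted on a gene, scaled by its exon length and by the size of the library), in which they are 2 of 1228 genes. Both were chosen by these same FPKM values, as genes strongly lower in OGD/R, so their OGD/R and control values are given as a description and without a test. Mean Avil was 5.38 ± 1.10 FPKM in control and 0.0333 ± 0.00577 FPKM in OGD/R (SD, n = 3), or 0.62% of the control level. Mean Sh2d6 was 19.7 ± 8.07 FPKM in control and 1.38 ± 0.703 FPKM in OGD/R (SD, n = 3), or 7.0% of the control level.

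Bv2 is an immortalised mouse microglial line, labelled wild type in all 6 libraries. The 3 control samples are labelled only as control, without a word on medium changes, and the 3 OGD/R samples were kept for 2 h without glucose and serum at 1% oxygen, after 30 min in nitrogen, and then for 24 h in standard medium with serum. The same protocol text mentions an infection 72 h before, given for all samples alike, without naming the agent or the groups that received it, so infection and OGD/R cannot be told apart if only 1 group was infected. The labels do not say whether replicates are separate cultures, so any p-value here measures only how these samples scatter, which can be technical scatter.

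Tuft cells are rare chemosensory cells of the gut, airway and other epithelia. They depend on the transcription factor Pou2f3, carry a tuft of stiff microvilli, and signal through taste-type G proteins, phospholipase C and the channel Trpm5. Avil encodes advillin, a calcium-regulated actin-binding protein of the gelsolin and villin family that is found in the tuft and in peripheral sensory neurons. Sh2d6 encodes a small protein with an SH2 domain, the module that binds phosphorylated tyrosines, and is used as a tuft cell marker. Neither gene is a usual marker of microglia.

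The table is not a whole transcriptome. Its 605 genes with the higher mean in OGD/R all have a log2 ratio of means of at least 1.03, and its 623 with the lower mean all have one of -0.97 or below, so it holds genes already chosen for about that difference on these samples. Genes outside it are not analysed here. Steps between low FPKM values put the size of the libraries at 7629000 to 8247000 counted units in control and 8030000 to 8664000 in OGD/R, where a unit is the smallest amount counted, a read or a read pair. In limma on log2(FPKM + 1), 829 of the 852 genes with a mean of at least 1 FPKM passed an adjusted p of 0.05, which is 97.3%, with 46.6% higher and 50.7% lower. A gene of this table that passes the test is therefore ordinary.

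Avil (ENSMUSG00000025432) lies on the plus strand of chromosome 10 of GRCm38, from 127000709 to 127020994. It has 20 exons in the coding transcript with the most exons and 3398 nt of exons in all. Sh2d6 (ENSMUSG00000052631) lies on the minus strand of chromosome 6, from 72513641 to 72521707, with 1690 nt of exons spread over 10 annotated transcripts, 8 of them coding. The 250 bases upstream of each RefSeq start (GRCm38.p6) are shown because both genes were lower in the same libraries. The windows are chr10:127000459-127000708 on the plus strand for Avil and chr6:72520037-72520286 on the minus strand for Sh2d6, printed 5′ to 3′ in the direction of each gene. Capitals mark the only exact matches to the 10 short motifs searched on both strands, with the last base lying next to the start.

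Avil: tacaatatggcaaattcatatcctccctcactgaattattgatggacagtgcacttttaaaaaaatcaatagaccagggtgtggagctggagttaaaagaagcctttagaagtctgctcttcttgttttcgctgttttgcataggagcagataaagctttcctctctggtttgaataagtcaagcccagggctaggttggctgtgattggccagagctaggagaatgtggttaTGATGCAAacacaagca
Sh2d6: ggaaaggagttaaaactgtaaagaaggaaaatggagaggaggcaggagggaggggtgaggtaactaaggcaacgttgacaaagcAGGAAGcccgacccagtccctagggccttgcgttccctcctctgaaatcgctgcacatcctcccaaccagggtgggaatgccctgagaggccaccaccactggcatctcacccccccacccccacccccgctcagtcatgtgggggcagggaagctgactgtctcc

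The Avil window holds TGATGCAA, the composite of a C/EBP and an ATF site, from 17 to 10 bases before the start. The letters occur in 0.791% of the 32851 RefSeq windows of this length, on either strand. The Sh2d6 window lacks that composite and holds AGGAAG, a core that ETS factors bind, from 166 to 161 bases before the start, which 29.5% of the windows hold. Neither window has an exact match to ATGCAAAT, the octamer bound by POU factors such as Pou2f3, which is in 1.6% of windows, and neither has a match to any of the other 7 motifs. These were the cyclic AMP element TGACGTCA, in 1.55% of windows, and its part TGACG, in 17.8%. The AP-1 site TGANTCA is in 6.75% of windows, the core ACGTG of hypoxia elements in 16.6%, and CCACG, a part of the element of the unfolded protein response, in 28.3%. The GC box GGGCGG is in 32.7% of windows and the TATA box TATAAA in 12.4%. The Avil window has a GC content of 42.0% and 1 CpG, and the Sh2d6 window 59.2% and 5 CpGs, against medians of 52.4% and 6 over all windows. Matches are matches of letters and do not show that a factor binds. The RefSeq start of Sh2d6 is 1 of several annotated, since the GENCODE gene begins at 72521707.

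In the control libraries Avil stood at 4.11, 6.00 and 6.02 FPKM, which is 107, 168 and 156 counted units. In the OGD/R libraries it stood at 0.04, 0.03 and 0.03 FPKM, where 1 unit is worth 0.0366, 0.0348 and 0.034 FPKM, so that each value is 1 unit. The groups are far apart: the lowest control value is 103 times the highest OGD/R value. Pooled over libraries, 431 units in control stand against 3 in OGD/R, a 154-fold difference after division by library size. Its exact 95% interval of 52.2 to 747 covers counting error only. It leaves out the spread between samples and the choice of Avil for this difference, so it is no test. With 1 unit per OGD/R library, a trace of transcript cannot be told from stray or wrongly assigned reads, and the 3 near-equal values do not measure the spread between these samples well.

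Sh2d6 stood at 10.66, 26.18 and 22.27 FPKM in control and at 0.93, 1.02 and 2.19 FPKM in OGD/R. The groups do not overlap, the lowest control value being 4.87 times the highest OGD/R value, but unlike Avil the gene stayed well above the level of single units in every OGD/R library. At its GENCODE exon length the OGD/R values come to about 12.6, 14.6 and 32.1 units. Only 1 of its 6 values was whole within rounding error, so these unit numbers are approximate. The ratio of the control mean to the OGD/R mean was 14.3 for Sh2d6 and 161 for Avil.

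**Figure D1:**
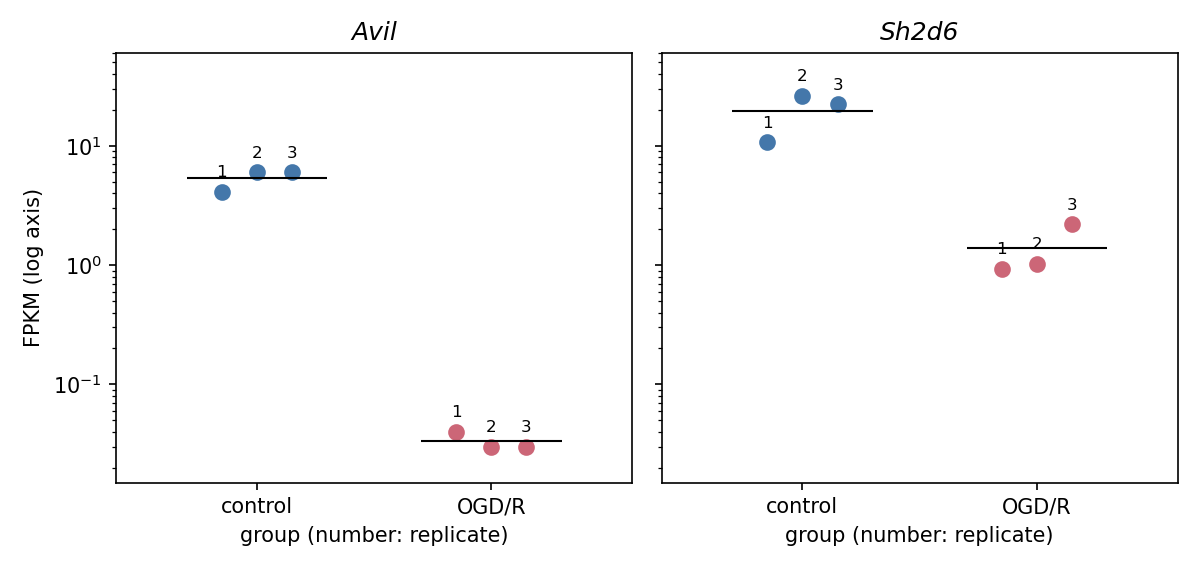
FPKM of Avil and Sh2d6 in each library on a log axis (points numbered by replicate, lines at the group means, n = 3 per group). The 3 OGD/R points of Avil lie at 0.03 to 0.04 FPKM and those of Sh2d6 at 0.93 to 2.19 FPKM, all below the control points of the same gene.

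Groups without overlap are the rule in this table: in 46.5% of its genes all OGD/R values lie below all control values, and in 94.9% the groups do not overlap in either direction. What sets both genes apart is the size of the difference, for which they were picked. Among the 600 lower genes with a mean above 0 in each group, Avil had the lowest log2 ratio of means, -7.33, and Sh2d6 ranked 21 with -3.84. Among the 499 of these with a control mean of at least 1 FPKM, they ranked 1 and 14. The median over the lower genes of that control level was -1.35.

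**Figure D2:**
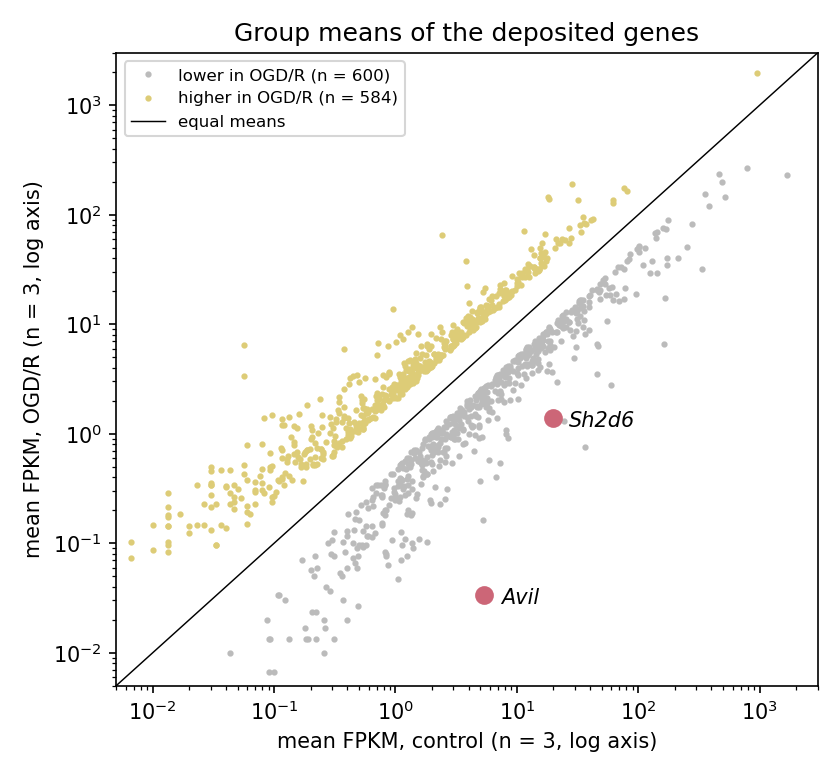
Mean FPKM in OGD/R against control for the 1184 deposited genes with a mean above 0 in each group, on log axes, with the line of equal means. Avil (5.38 and 0.0333 FPKM) lies furthest below that line, and Sh2d6 (19.7 and 1.38 FPKM) ranks 21 among the 600 lower genes.

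On the log2(FPKM + 1) scale the difference of OGD/R from control was -2.61 ± 0.15 for Avil and -3.07 ± 0.36 for Sh2d6 (limma estimate ± SE, with no test). That scale puts Sh2d6 ahead of Avil, the reverse of the order of the ratios, because a pseudocount of 1 is far above the OGD/R level of Avil. With a pseudocount of 0.1 the differences were -5.34 for Avil and -3.74 for Sh2d6.

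The libraries of a group were not alike for these genes. Control replicate 1 was the lowest control library for Avil, 1.46-fold below each of the others, and for Sh2d6, 2.46-fold below replicate 2 and 2.09-fold below replicate 3. It was also the lowest control in 307 of the 505 lower genes with a control mean of at least 1 FPKM, or 60.8%. For Sh2d6, OGD/R replicate 3 was the highest OGD/R library, as it was in 257 of those 505 genes, or 50.9%. Both held at once in 194 of the 505, or 38.4%, Sh2d6 among them, while Avil was flat over the OGD/R libraries. The spread of Sh2d6 was wide: its coefficient of variation in control was 41.0%, above that of 86.5% of those genes, against 20.4% for Avil and a median of 18.9%. Without control replicate 1 the log2(FPKM + 1) difference was -3.44 for Sh2d6 and -2.76 for Avil, and the part of that library in the result was not tested beyond this.

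The FPKM of Sh2d6 was 2.59, 4.36 and 3.70 times that of Avil in the control libraries, a comparison per exon length. In OGD/R the same ratio was 23.2, 34.0 and 73.0, all above the control ratios, though each rests on 1 unit of Avil.

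Out of 53 listed tuft cell genes other than this pair that GENCODE M21 names, only Kctd12 and Atp2a3 are in the table. The list is a selection, and tuft cell genes of the table outside it were not counted. Kctd12 and Atp2a3 went opposite ways. Kctd12, an auxiliary subunit of GABA-B receptors, stood at 11.41, 10.09 and 10.00 FPKM in control and at 31.13, 29.15 and 28.47 FPKM in OGD/R, and it rose (limma log2 fold change 1.41 ± 0.10 SE, adjusted p = 7.9e-05). Atp2a3, a calcium pump of the endoplasmic reticulum, stood at 1.28, 1.40 and 1.44 FPKM in control and 0.24, 0.13 and 0.20 FPKM in OGD/R, without overlap, and was below the expression minimum for the test. So 1 of 1 tested genes of the list rose and 0 fell, with a median log2 fold change of 1.41 that is the value of 1 gene, beside -0.68 over all tested genes. Of all tested genes 46.6% rose and 50.7% fell. Kctd12 and Atp2a3 are both expressed outside tuft cells. Pou2f3, Trpm5, Dclk1, Il25, Gnat3 and Gng13, which define the cell type, are not in the table, and no gene of the epithelial list (13 genes) is in it either. Whether the control cells carried other parts of a tuft cell programme is therefore not answered by these values.

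Ptpn6, Alox5ap, Ptgs1 and Plcb2, signalling and lipid mediator genes that tuft cells share with myeloid cells, are not in the table. Of 17 listed genes that mark microglia and macrophages, Cx3cr1 and P2ry12 are in the table, both higher in OGD/R. The list is a selection and does not give the direction of microglial genes at large. Cx3cr1, the fractalkine receptor, rose from 0.373 ± 0.150 to 1.77 ± 0.220 FPKM (SD, n = 3; adjusted p = 0.00048 in limma), and P2ry12, a purine receptor, had means of 0.530 ± 0.108 and 1.25 ± 0.324 FPKM and was not tested. Cx3cr1 reached the expression minimum for the test only through its OGD/R values. It was below that minimum when any OGD/R library was left out, so its call is no support. The usual defining markers Aif1, Csf1r and Itgam are not analysed here. In bulk libraries fewer cells with a transcript and less transcript per cell cannot be told apart.

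The table holds 870 of the 22028 protein-coding genes of GENCODE M21, or 3.95%, so a short list can have no member in it without this saying anything of the list. Of 7 other genes of the gelsolin and villin family (Gsn, Vil1, Vill, Svil, Capg, Scin and Flii), 0 are in the table. Capg, which caps actin filaments, is also the nearest protein-coding neighbour of Sh2d6, 22684 nt away. Of 51 other listed genes that bind or remodel actin, 2 are in the table, 1 of them fell and 0 rose (median log2 fold change -1.05). Of all tested genes 50.7% fell and 46.6% rose. The list is a selection, and actin genes of the table outside it were not counted. Eps8, which caps and bundles actin filaments and occurs in microvilli, had 24.02, 20.83 and 21.88 FPKM in control and 9.81, 9.93 and 9.73 FPKM in OGD/R, and it fell (log2 fold change -1.10, limma adjusted p = 0.00013). Tmsb10, a thymosin that binds actin monomers, stood at 71.97, 180.78 and 155.87 FPKM in control and 47.23, 49.15 and 107.27 FPKM in OGD/R. The highest OGD/R value lies above the lowest control value, and it did not pass the test (limma adjusted p = 0.065). Without control replicate 1 the adjusted p was 0.014, and without OGD/R replicate 3 it was 0.019, the same libraries that stand apart for Sh2d6.

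Among 48 listed SH2-domain adaptors other than Sh2d6, 2 are in the table and both fell, with a median log2 fold change of -1.03. Over all tested genes 50.7% fell, and the median over tested genes with a negative fold change was -1.04, so this is ordinary here. Sh2b1, an adaptor of insulin and leptin receptor signalling, had 10.95, 14.74 and 15.94 FPKM in control and 5.19, 6.43 and 8.34 FPKM in OGD/R, and it fell (adjusted p = 0.0034 in limma). Bcar3, an adaptor that acts with p130Cas, had 3.31, 3.96 and 4.59 FPKM in control and 1.20, 1.20 and 1.54 FPKM in OGD/R, and it fell (adjusted p = 0.00038 in limma). Their ratios of control to OGD/R mean were 2.09 and 3.01, against 14.3 for Sh2d6. Blnk, Lcp2 and Clnk, adaptors of immune receptor signalling with SH2 domains, are not in the table.

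Advillin is also known from sensory neurons, and of 22 genes of those cells 2 are in the table. P2rx3, an ATP-gated channel of pain-sensing neurons, had 13.38, 17.65 and 16.92 FPKM in control and 6.56, 6.44 and 7.94 FPKM in OGD/R, and it fell (log2 fold change -1.09, limma adjusted p = 0.00046). Tubb3, the neuronal beta-tubulin, had 0.63, 1.17 and 0.56 FPKM in control and 0.20, 0.00 and 0.37 FPKM in OGD/R, too low for the test. Of 20 markers of other neural, vascular, stromal and lymphoid cells, Vwf, the endothelial von Willebrand factor, fell (control mean 3.66, OGD/R mean 1.44 FPKM, adjusted p = 0.0012 in limma), and Cspg4, a proteoglycan of glial precursors and pericytes, was at most 0.09 FPKM. The part of these genes in the values of Avil or Sh2d6 was not tested.

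A pattern like that of Avil, a control mean of at least 1 FPKM with every OGD/R value at 0.1 FPKM or less, was found in 7 genes, or 0.57% of the table. Of the 7, only Avil and Gm19410 are annotated as protein-coding. Gm19410, a gene model with no assigned role, stood at 1.29, 1.72 and 1.28 FPKM in control and is listed at 0 in each OGD/R library. The others, Mir6376, Gm22770, Gm23037, AC161165.1 and Gm15890, are short or non-coding models of 67 to 770 nt and are also listed at 0 in every OGD/R library. At these lengths their control values are far fewer counted units than those of Avil. Gm22770 stood at 3.89, 1.81 and 11.74 FPKM in control. Gm23037 stood at 4.03, 0.00 and 2.02 FPKM in control, so its groups overlap. Avil had the highest control level among the protein-coding genes of this pattern and is the 1 gene of the 7 with any signal left. On a model of 770 nt or less, 1 unit is worth more than 0.1 FPKM in each OGD/R library. The short models could therefore enter only at 0, and their lack of signal is set by the rule.

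The genes with the most similar profile were found by the Euclidean distance between the 6 values of log2(FPKM + 0.1), each gene centred on its own mean. It was taken over 872 other genes, since symbols of Gm with a digit, ending in Rik or holding -ps were left out. The ranks below are therefore not ranks over the whole table. For Avil the 5 nearest were Mir6376, Ddit3, AC164069.1, Lcn2 and Bglap2, at distances of 1.12 to 2.03 against a median of 7.48. For Sh2d6 they were Lcn2, Akr1b7, Creld2, Ddit3 and Nox3, at 0.832 to 1.18 against a median of 5.67. Ddit3, which encodes the stress-induced transcription factor CHOP, and Lcn2, an iron-siderophore binding protein of innate immunity, were in both sets. Sh2d6 itself was the 8th nearest to Avil, and Avil the 36th nearest to Sh2d6.

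Ddit3 stood at 100.29, 189.53 and 198.77 FPKM in control and at 4.43, 4.62 and 10.91 FPKM in OGD/R, with control replicate 1 lowest and OGD/R replicate 3 highest, as for Sh2d6. Lcn2 stood at 2.49, 5.96 and 7.40 FPKM in control and at 0.09, 0.14 and 0.26 FPKM in OGD/R, the same order at the ends of each group. Akr1b7, an aldo-keto reductase, stood at 5.91, 10.13 and 9.42 FPKM in control and at 0.49, 0.46 and 1.80 FPKM in OGD/R, again with the same libraries lowest and highest. Nox3, a superoxide-producing oxidase best known from the inner ear, stood at 6.04, 9.07 and 9.36 against 0.63, 0.99 and 1.35 FPKM, also with replicate 1 lowest in control and replicate 3 highest in OGD/R. Creld2, an endoplasmic reticulum stress gene, stood at 98.27, 202.69 and 194.74 against 19.60, 13.92 and 18.59 FPKM, and differs from the other 4 in that OGD/R replicate 1 was its highest. All 5 were picked for nearness to the 6 values of Sh2d6, so a like order of libraries is partly built in and supports nothing. The distance also holds the difference between the groups for which Sh2d6 was chosen. Bglap2 has near-identical neighbours, AC164069.1 is antisense to Gpr84 and Mir6376 spans 131 nt, so their values are uncertain. The sets depend on the pseudocount: with 0.01 in place of 0.1, 2 of the 5 genes were again among the nearest for Avil and 2 of 5 for Sh2d6, and with 1 they were 0 and 2.

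**Figure D3:**
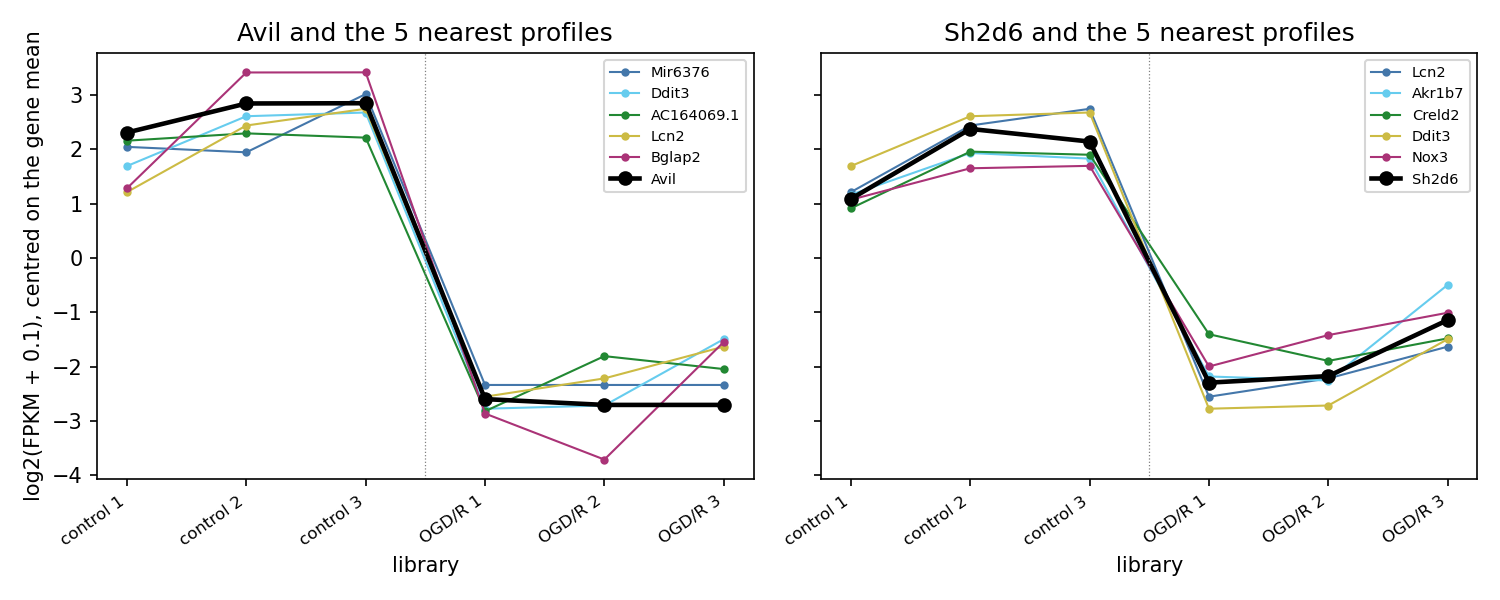
Profiles of log2(FPKM + 0.1), centred on each gene's mean, over the 6 libraries, for Avil (left), Sh2d6 (right) and the 5 nearest genes of each among those compared. Sh2d6 is lowest among controls in replicate 1 and highest among OGD/R libraries in replicate 3, and Avil is flat over the OGD/R libraries, where it holds 1 counted unit each.

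On chromosome 10, 5 other genes of the table lie within 500 kb of Avil, and all 5 were lower in OGD/R with groups that do not overlap, beside 46.5% of all genes in the table. These are Eef1akmt3, March9, A730063M14Rik, Kif5a and Ddit3, and GENCODE places 30 protein-coding genes other than Avil in the same window, so 26 of those are not analysed here. The nearest, Eef1akmt3, a methyltransferase that modifies a translation elongation factor, lies 10010 nt beyond the end of Avil and stood at 0.96, 2.19 and 1.45 FPKM in control and 0.69, 0.69 and 0.30 FPKM in OGD/R. It fell (limma log2 fold change -0.68, adjusted p = 0.018), but not with median ratio scaling (adjusted p = 0.054) nor without OGD/R replicate 3 (adjusted p = 0.053). Eef1akmt3 reached the expression minimum for the test only through its control values. It was below that minimum in some fits with a control library left out, so its call is no support. March9, a membrane-bound ubiquitin ligase, had 1.93, 3.00 and 2.72 FPKM in control and 0.66, 0.70 and 0.30 FPKM in OGD/R, and it fell (adjusted p = 0.0007 in limma). It too reached that minimum only through its control values. The long non-coding RNA A730063M14Rik had 0.74, 0.82 and 0.96 FPKM against 0.07, 0.20 and 0.33 FPKM, and Kif5a, a neuronal kinesin, was at most 0.10 FPKM in control and is listed at 0 in OGD/R. Ddit3 lies 269780 nt from Avil, and its values stand above.

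Ratios of control to OGD/R mean were 2.74 for Eef1akmt3, 4.61 for March9, 4.20 for A730063M14Rik and 24.5 for Ddit3, all smaller than the 161 of Avil. Such a stretch is not single in the table: 65 of 1227 placed genes have 5 or more table genes within 500 kb. For 24 of those 65, or 1.96% of all 1227 placed genes, all of these neighbours were lower. Neighbours tended to share direction across the table: of the table genes within 500 kb of a lower gene 67.8% were lower, against 42.0% of those around a higher gene. The 24 include Avil and its 5 neighbours. Around Sh2d6 there are only Tmsb10 and Dnah6, an axonemal dynein, which was at 0.35, 0.55 and 0.37 FPKM in control and 0.93, 0.60 and 1.22 FPKM in OGD/R, so 1 neighbour was lower and 1 higher. Tsfm, a mitochondrial translation factor on the opposite strand, overlaps 165 nt of Avil exons, or 4.86% of their length, and is not in the table. The sources used here do not say if strand was used in counting, so reads from the shared stretch cannot be assigned to either gene.

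**Figure D4:**
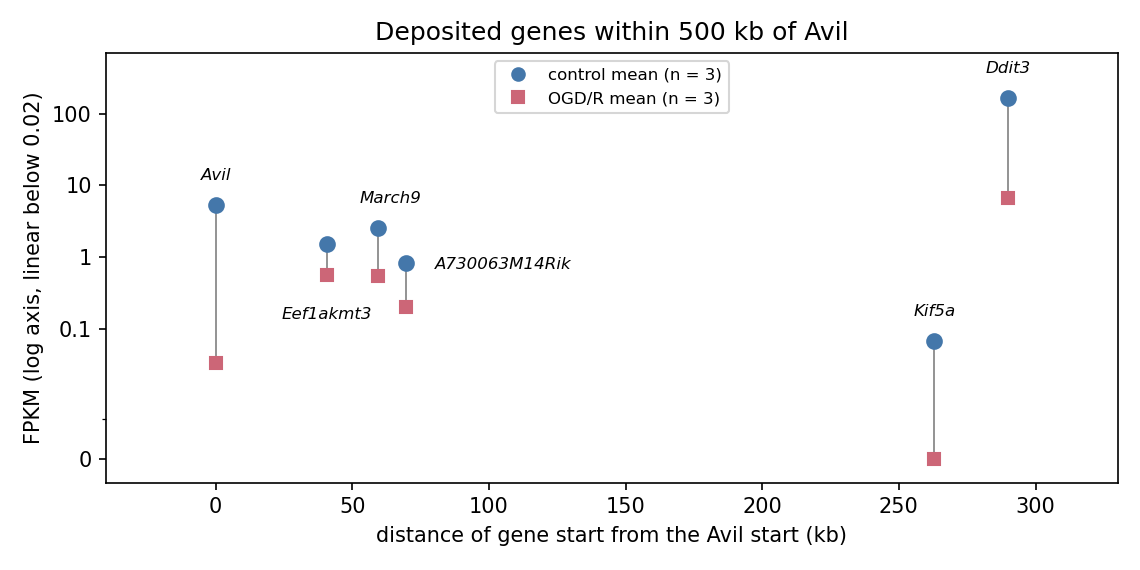
Mean FPKM in control (circles) and OGD/R (squares), n = 3 each, of Avil and the 5 deposited genes within 500 kb, by distance from the Avil start in kb. The axis is logarithmic above 0.02 FPKM and linear below it, and each square lies below its circle, with the longest drop relative to its control in Avil among the genes above 0.

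The TGATGCAA composite of the Avil window was looked for in the rest of the table. Of the 387 lower genes with a RefSeq window, 10 hold it, or 2.58%, Avil included, whose window set the search. Against this stand 6 of 387 higher genes, or 1.55%, and 0.918% of all 27025 genes with a window. All are named here after their values were seen, and no theme among them was tested. Beside Avil the lower genes are Sfxn4, Mcf2l, Pi16, 4930438A08Rik, 1810008I18Rik, Pycr1, a proline synthesis gene, Herpud1, a component of endoplasmic reticulum protein degradation, at means of 338 and 32.2 FPKM in control and OGD/R, Atf3, a stress-induced transcription factor, at 77.4 and 21.2 FPKM, and Nupr1, a stress-response nuclear protein, at 14.9 and 4.39 FPKM. Log2 ratios of means were -3.39 for Herpud1, -2.57 for 1810008I18Rik, -2.13 for Pi16, -2.11 for Mcf2l and -1.87 for Atf3. They were -1.76 for Nupr1, -1.24 for Sfxn4, -1.02 for 4930438A08Rik and -0.99 for Pycr1. The 6 higher genes are Frmd4b, Dock9, Map3k13, Serpinf1, Nlrp3 and Slc7a11, the last a cystine transporter at 15.3 and 31.7 FPKM. The windows of lower and higher genes held AGGAAG, the match in Sh2d6, in 31.8% and 35.7%.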

How the data were processed

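The deposited values are FPKM in 1 table with a column per sample, computed by the authors on GRCm38, per the submitters' processing notes. Aligner, counter and annotation are not given here. Gene IDs were matched to GENCODE M21 (1227 of 1228), which restored 2 names turned into dates. Counted units came from the library size that turned low FPKM values (below 15 units) into whole numbers of units, within rounding plus 0.03 units; 96.9% to 99.6% were whole, against 22.1% to 24.0% by chance. Genes with a mean of at least 1 FPKM were tested with limma 3.58.1 in R 4.3.3 on log2(FPKM + 1), group as the only factor, eBayes with trend, two-sided, Benjamini-Hochberg adjusted over 852 genes. Both steps were tested on simulated data. Upstream windows came from RefSeq (GRCm38.p6), where both genes matched, and motifs were exact matches. Avil, Sh2d6, the lists and the rules were chosen with earlier results of these data known. Named genes were those listed, those within 500 kb, the 5 nearest profiles of each, and up to 8 genes lost in OGD/R; other lists gave up to 4. The rest ran in Python 3.11.15, with matplotlib 3.10.9, numpy 2.4.6, pandas 2.3.3 and scipy 1.17.1. Alternatives covered the pseudocount, filter, scaling, trend, a replicate block, voom and each library left out.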

Additional observations from a re-analysis of the deposited data

How the results depend on the processing

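The difference was -2.61 for Avil and -3.07 for Sh2d6 on log2(FPKM + 1). It was -5.34 and -3.74 with a pseudocount of 0.1, -6.94 and -3.84 with 0.01, and -6.66 and -3.78 with voom on recovered units, since a smaller pseudocount shrinks low values less. Without any 1 library it ran from -2.76 to -2.53 for Avil and from -3.44 to -2.83 for Sh2d6. The number of genes passing was 829; it was 409 of 423 when the filter was raised to 5 FPKM, and 786 to 831 without any 1 library. Tuft cell genes passing went from 1 to 2 and sensory neuron genes from 1 to 2 with no filter on low values, which tests more genes, and SH2 adaptors from 2 to 1 with the 5 FPKM filter, which tests fewer. Actin genes passing went from 1 to 2 with the replicate block and with voom, and from 1 to 2 over the libraries left out, through Tmsb10 each time (the cause was not tested). Without any 1 library tuft cell and sensory neuron genes stayed at 1 to 1 and SH2 adaptors at 2 to 2. Median ratio scaling moved all fold changes by a median of 0.36; 770 genes passed. Of 20 other named genes tested, 17 had the same direction and the same call in each setting that tested them, which was 10 to 14 settings per gene, since the filter left some low genes out; the calls of Eef1akmt3, Tmsb10 and Gm23037 changed in some. Whether the replicate numbers are a pairing is not known. Libraries with the same number had deviations from the group mean that correlated by 0.428, -0.349 and 0.375. For different numbers the range was -0.628 to 0.479. These correlations cannot decide it, since the deviations of the 3 libraries of a group sum to 0. With the replicate block 835 genes passed, with -2.61 for Avil and -3.07 for Sh2d6. At 1 unit per OGD/R library, depth limits the size of the Avil difference.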
